A study of Mus musculus with 10 samples.

Results

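Potassium channel genes were followed through the H3K27me3 landscape of fetal liver long-term hematopoietic stem cells (LT-HSCs). All autosomal protein-coding genes of the GRCm38 annotation whose symbol starts with Kcn were taken, which gave 92 genes of 21 subfamilies among 20807 autosomal protein-coding genes. H3K27me3, a histone mark laid down by the Polycomb complex PRC2, was profiled by CUT&Tag, in which an antibody guides a transposase that cuts out the chromatin carrying the mark. Cells had been sorted as LSK CD48-CD150+ from E14.5 mouse fetal liver, in 3 IκBα wild-type (WT) and 3 IκBα knockout (KO) libraries, out of 10 samples in the series. IκBα, encoded by Nfkbia, is the cytoplasmic inhibitor of NF-κB and has also been found on chromatin. KO embryos carried a targeted Nfkbia deletion that is present in all cells of the embryo, and came from matings of heterozygous parents. The study calls the replicates independent and gives the embryos used for this assay in total, but not how many stand behind each library. Its figure legend gives 2 independent experiments for the assay, so libraries of a genotype may share an experiment.

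Potassium channels let K+ ions leave or enter cells and so set the resting potential, end action potentials and shape cell volume and calcium entry. They are built as a pore of separate or tandem subunits, with auxiliary proteins that change gating or transport to the membrane. Many are best known from neurons, muscle and the inner ear, while a smaller group, among them Kcnn4, Kcna3 and Kcnab2, has known roles in blood cells. H3K27me3 over a start site is typical of developmental and tissue-restricted genes that are kept silent.

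Each library is described by its peaks only. Read totals per library are listed by the study and were not used here, and the files themselves hold none. Total signal (coverage by fragments, summed along a peak) and maximum signal (coverage at its highest point) are unscaled for depth. A gene was counted in a library when a peak overlapped its promoter, the window that begins 5 kb before an annotated transcription start site (TSS) and ends 100 bp past it. It was called marked in a genotype when this held in at least 2 of the 3 libraries. WT replicate 3 stood apart, with 1044 autosomal peaks against 2317 to 5989 in the other 5 libraries and a median maximum signal of 6 fragments against 9 or 10. Both replicate 3 libraries were sequenced with 50 bp reads and the other 4 with 75 bp reads. None of 11 blood stem cell genes and none of 4 hepatocyte genes had a promoter peak in any library. By contrast all 4 neuronal regulators were called in at least 4 libraries, and 31 of 39 Hox genes in at least 1. Nfkbia had no peak, so these files hold no check of the genotype. In sorted bulk cells, a stronger mark per cell and a larger share of marked cells cannot be told apart.

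Promoter sequences illustrate the kinds of start site involved. RefSeq promoters (300 bases around a start, mostly upstream, GRCm38.p6) were matched for 68 of the 92 genes. The first 2 below had the highest mean percentile of total signal in their subfamilies, the next 2 are neighbours on chromosome 3 of which only Kcna2 carried a peak, and the last 2 belong to unmarked genes of blood cells. Kcna2 and Kcna3 were chosen after their values were seen. Sequences run 5′ to 3′ in the direction of transcription, and capitals mark the dinucleotide CG, the motif counted, which reads the same on both strands.
Kcnc4 (chr3:107458849-107459148, minus strand): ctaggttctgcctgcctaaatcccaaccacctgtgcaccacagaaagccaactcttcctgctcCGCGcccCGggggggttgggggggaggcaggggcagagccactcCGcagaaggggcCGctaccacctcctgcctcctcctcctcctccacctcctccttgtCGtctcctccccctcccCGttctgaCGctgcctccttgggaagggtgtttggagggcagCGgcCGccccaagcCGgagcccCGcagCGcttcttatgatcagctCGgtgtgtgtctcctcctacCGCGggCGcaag
Kcnj4 (chr15:79505192-79505491, minus strand): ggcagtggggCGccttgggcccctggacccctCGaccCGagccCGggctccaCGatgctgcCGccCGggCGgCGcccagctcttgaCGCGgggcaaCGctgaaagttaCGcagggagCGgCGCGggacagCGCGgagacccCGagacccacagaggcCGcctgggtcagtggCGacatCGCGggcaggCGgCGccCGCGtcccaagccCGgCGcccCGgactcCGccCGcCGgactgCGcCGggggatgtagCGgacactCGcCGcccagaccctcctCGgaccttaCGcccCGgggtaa
Kcna2 (chr3:107101317-107101616, plus strand): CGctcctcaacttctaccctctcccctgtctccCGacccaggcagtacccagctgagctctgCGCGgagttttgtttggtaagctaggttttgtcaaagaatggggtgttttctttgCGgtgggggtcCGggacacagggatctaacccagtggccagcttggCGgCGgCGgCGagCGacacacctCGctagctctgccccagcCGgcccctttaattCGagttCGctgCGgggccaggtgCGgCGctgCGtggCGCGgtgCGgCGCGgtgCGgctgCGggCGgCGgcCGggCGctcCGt
Kcna3 (chr3:107035912-107036211, plus strand): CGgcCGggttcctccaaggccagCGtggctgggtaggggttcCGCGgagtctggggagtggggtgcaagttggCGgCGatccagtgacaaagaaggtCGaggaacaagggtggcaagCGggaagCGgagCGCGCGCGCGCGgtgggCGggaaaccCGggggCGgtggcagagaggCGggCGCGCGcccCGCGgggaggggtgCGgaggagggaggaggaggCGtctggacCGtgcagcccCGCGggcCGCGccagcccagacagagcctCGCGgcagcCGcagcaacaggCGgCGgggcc
Kcnn4 (chr7:24370013-24370312, plus strand): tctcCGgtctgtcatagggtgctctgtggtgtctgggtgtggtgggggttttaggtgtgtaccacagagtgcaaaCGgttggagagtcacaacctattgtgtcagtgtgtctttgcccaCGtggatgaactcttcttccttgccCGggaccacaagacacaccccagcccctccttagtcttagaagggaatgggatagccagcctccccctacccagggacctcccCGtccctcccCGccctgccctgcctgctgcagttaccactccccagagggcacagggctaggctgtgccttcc
Kcnab2 (chr4:152477500-152477799, minus strand): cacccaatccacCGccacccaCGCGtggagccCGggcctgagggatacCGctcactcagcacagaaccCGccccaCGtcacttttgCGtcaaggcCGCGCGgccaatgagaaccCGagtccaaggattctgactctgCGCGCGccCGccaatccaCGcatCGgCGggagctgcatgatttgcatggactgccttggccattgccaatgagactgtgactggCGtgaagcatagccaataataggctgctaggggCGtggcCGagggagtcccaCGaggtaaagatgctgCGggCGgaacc

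The Kcnc4 window held 17 CG, a number reached by 45.1% of 19174 RefSeq promoters of autosomal coding genes, and a peak covered part of it in 6 of 6 libraries. Kcnj4 held 41 CG (4.8% of promoters hold as many) and Kcna2 held 31 (14.9%), each under a peak in 5 libraries. Kcna3, with 37 CG (7.8% of promoters), had no peak over it in any library. The Kcnn4 window was poor in CG, with 6 (69.8%), while that of Kcnab2 held 25 (26.4%), and neither was overlapped by a peak. Windows rich in CG were thus found with and without a peak. The RefSeq starts of Kcnc4, Kcna2 and Kcnab2 lay 654, 421 and 322 bp from the principal start used below. Their CG counts do not describe that start, where the observed over expected CpG ratio was 0.8 for Kcnc4 and 0.572 for Kcna2. By the rule given below, Kcnc4 counts as CpG-rich and Kcna2 does not. Over the 93 promoter entries of the family the median was 9 CG, against 14 over all 19174. Kcnh3 also ranked among the strongest but no promoter entry was matched for it.

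The first question was how much of the family carried the mark. A promoter peak was found for 64 of 92 genes (69.6%) in at least 1 library, against 16.5% of all autosomal protein-coding genes. By replicate, the WT libraries called 53, 57 and 13 potassium channel genes (57.6%, 62% and 14.1%), where the shares over all genes were 11.2%, 13.6% and 3.64%. The KO libraries called 60, 56 and 44 (65.2%, 60.9% and 47.8%), against 13.4%, 12.8% and 8.47% of all genes. In every library the share of the family was thus higher than that of all genes, and WT replicate 3 was lowest in both. All 6 libraries called 11 of the genes (12%, against 2.79% of all genes), and the 4 libraries of 75 bp reads called 43 (46.7%, against 8.98%).

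Between genotypes, the share of potassium channel promoters with a peak was 44.6 ± 26.4% in WT and 58 ± 9.05% in KO (mean ± SD, n = 3 each). The difference of 13.4 percentage points was the mean over the 3 same-numbered pairs, whose single differences had an SD of 18.1 points, and it was not tested. WT replicate 3 carried most of it, since without that library KO lay 1.81 points below WT (a difference of -1.81), and among the 75 bp libraries KO was 3.26 points higher. Over all genes the difference was 2.09 points. When each library was reduced to its 1044 strongest peaks, the difference for potassium channels was 3.62 points. Marked genes, called in at least 2 libraries of a genotype, numbered 50 in WT (54.3%, against 10.6% of all genes) and 57 in KO (62%, against 12%). The WT count rests on replicates 1 and 2, for it fell to 13 without replicate 1 and to 12 without replicate 2.

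**Figure D1:**
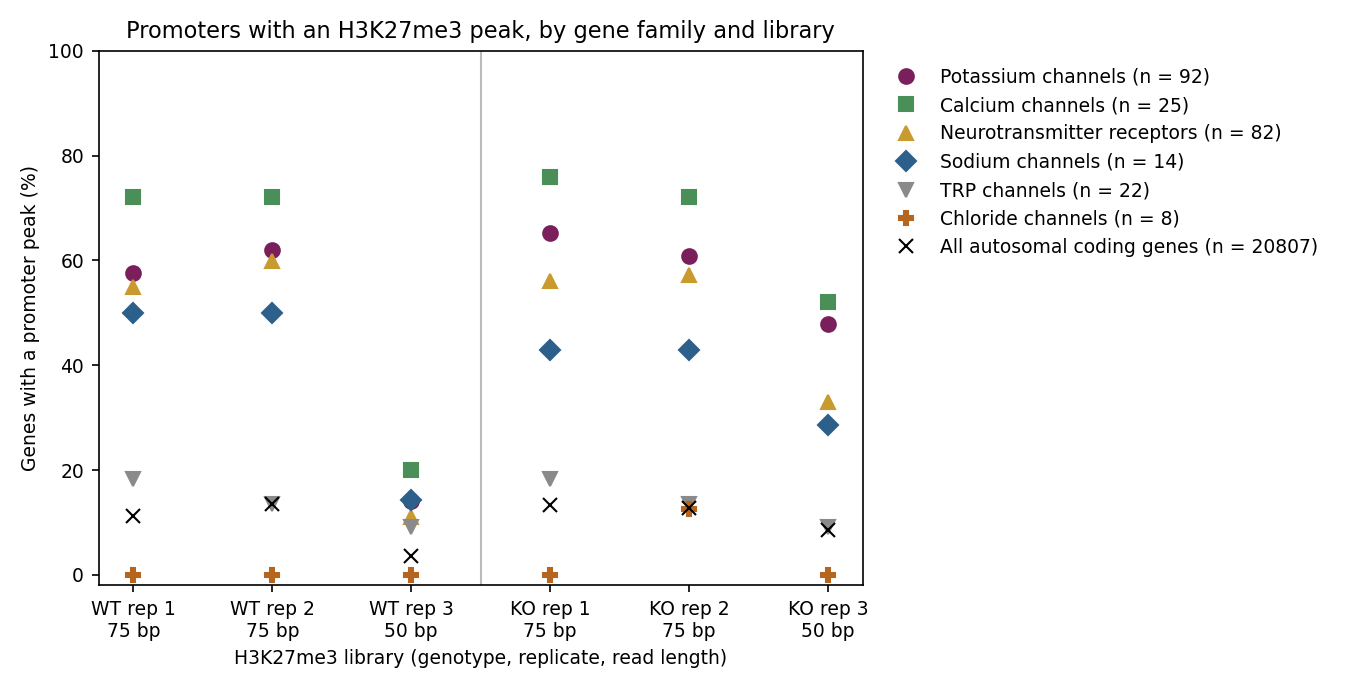
Share of genes with an H3K27me3 promoter peak (y axis, percent) in each of the 6 libraries (x axis, with read length) for potassium channels, other channel and receptor families and all autosomal coding genes, 1 point per library. Potassium channels lie at 47.8% or more in 5 libraries and at 14.1% in WT replicate 3, above all coding genes in each.

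Other gene families of excitable cells were set beside potassium channels. Calcium channel subunit genes were called in at least 1 library for 20 of 25 (80%) and neurotransmitter receptor genes for 57 of 82 (69.5%). Sodium channel genes were called for 8 of 14 (57.1%). TRP and chloride channel genes were lower, with 4 of 22 (18.2%) and 1 of 8 (12.5%). No test was made between these families, and the 69.6% of potassium channels lay between the calcium and sodium channels.

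Base composition around the principal start was compared with marking. Promoters were called CpG-rich when the observed over expected CpG ratio was at least 0.6 and the GC content at least 50% within 500 bp of the principal start. Of 39 CpG-rich potassium channel genes, 32 (82.1%) had a promoter peak in at least 1 library, against 19.6% of CpG-rich genes in all. Among 53 genes with CpG-poor promoters there were 32 (60.4%), against 13.6% of such genes in all. The median CpG ratio was 0.649 for the 50 genes called in at least 4 libraries, 0.561 for the 14 called in 1 to 3 and 0.272 for the 28 never called. Over all genes the same groups had medians of 0.671, 0.58 and 0.561. Of the 28 potassium channels without a promoter peak 7 were CpG-rich (25%, against 45.6% of all genes without one), namely Kcna3, Kcnab2, Kcnh4, Kcnh8, Kcnk5, Kcnk6 and Kcnq5. The family had as many annotated starts per gene as all genes (median 3 for both) but longer genes (median 32.2 against 17.6 kb). With the principal start alone, 61 genes (66.3%) had a promoter peak, against 15% of all genes.

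**Figure D2:**
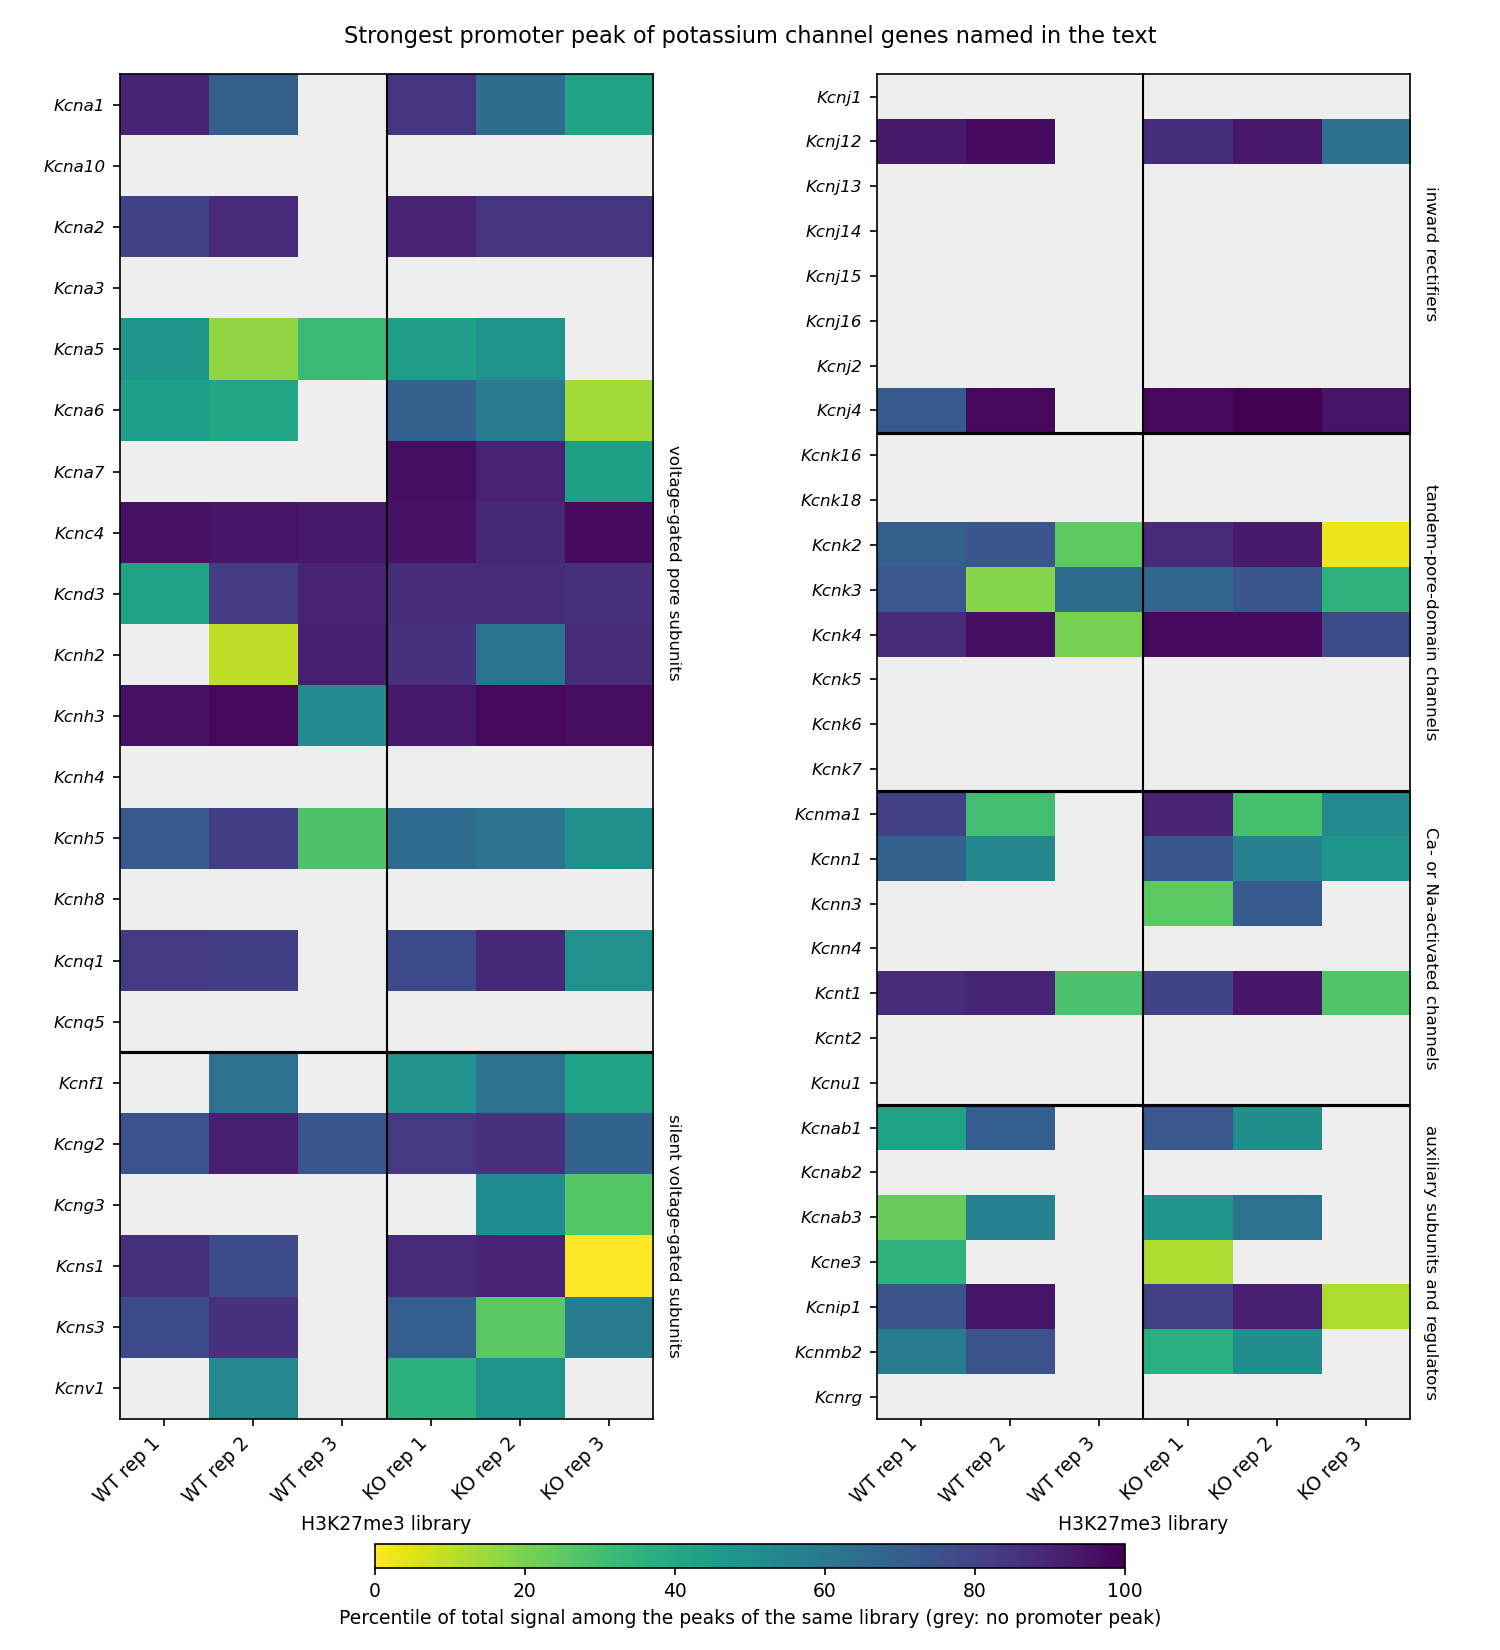
Strongest promoter peak of the 52 potassium channel genes named in the text (rows, by class) in the 6 libraries (columns), coloured by the percentile of its total signal among the autosomal peaks of the same library, with grey for no promoter peak. Kcnc4 lies between the 88.4th and 97.6th percentile in all 6 libraries, and WT replicate 3 is grey for most genes.

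Voltage-gated pore subunits, which open on depolarization, were the largest class and had the largest number of marked genes. By share called in at least 1 library, silent subunits stood higher (90% against 82.8%). Of 29 genes, 24 had a promoter peak in at least 1 library, and 20 were marked in WT and 22 in KO. Among its subfamilies, Kcna had one for 6 of 8 genes, Kcnd for 2 of 2 and Kcnh for 6 of 8. Kcnc4, which encodes a fast-inactivating channel, had total signals of 41468, 43364 and 7298 in the WT libraries, in replicate order, and of 55288, 30052 and 31546 in KO. Maxima were 15, 14 and 7 fragments for WT and 13, 10 and 14 for KO. Within each library these peaks stood between the 88.4th and 97.6th percentile of total signal, and WT replicate 3 was low only on the unscaled values (93.3rd percentile).

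Kcnh3, a forebrain member of the ether-a-go-go group, reached percentiles of 95.3 and 98.0 in the 75 bp WT libraries and 93.4, 98.0 and 96.3 in KO, but 51.9 in WT replicate 3, where its strongest peak did not cover the principal start.

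Kcnd3, a subunit of the transient outward current of the heart, was called in all 6 libraries, with percentiles of 42.6, 82.8 and 89.9 in WT and 87.1, 88.1 and 86.2 in KO. Kcnh5, another ether-a-go-go subunit, was also called in 6 of 6 libraries, with 71.9, 81.7 and 27.9 in WT and 65.0, 62.1 and 49.7 in KO.

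Kcnq1, the repolarizing channel of heart and inner ear that is also listed here for blood, was called in all libraries but WT replicate 3, with percentiles of 82.8 and 81.3 in WT and 77.4, 88.9 and 49.6 in KO. Kcnh2, which encodes the hERG channel and has been found in leukemic cells, varied more between libraries. Its promoter percentiles were 9.87 in WT replicate 2, 91.8 in WT replicate 3 and 85.7, 61.7 and 87.4 in KO, and WT replicate 1 had none. In WT replicate 2 a stronger peak in the body (61.0) lay 427 bp from the principal start, outside the window. WT replicate 1 likewise had a peak in the body (15.6), with a total signal of 7776, and both body peaks enter the signal comparison at Kcnh2. Kcna3, the channel of T lymphocytes, had no peak at its promoter or body in any library.

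The Kcna genes lie in clusters that allowed neighbours to be compared. On chromosome 3, Kcna2, a channel of axons, was called in 5 libraries with total signals of 23150 and 32269 in WT replicates 1 and 2 and of 39271, 26367 and 17369 in KO. Kcna3, 65.0 kb upstream, and Kcna10, 81.9 kb downstream, had none. On chromosome 6, Kcna5, Kcna1 and Kcna6 were each called in 5 libraries. Kcna5, an atrial channel, was the only one of them called in WT replicate 3 (total signal 3860) and was missed in KO replicate 3. Kcna1 and Kcna6, both neuronal, were missed in WT replicate 3 only. The peaks at the 3 starts were separate, and further peaks fell between, beside or inside the genes, 6 of them in WT replicate 2 and 1 each in KO replicates 1 and 2. The 3 clustered Kcna genes of chromosome 6 thus shared the mark, whereas those of chromosome 3 did not.

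**Figure D3:**
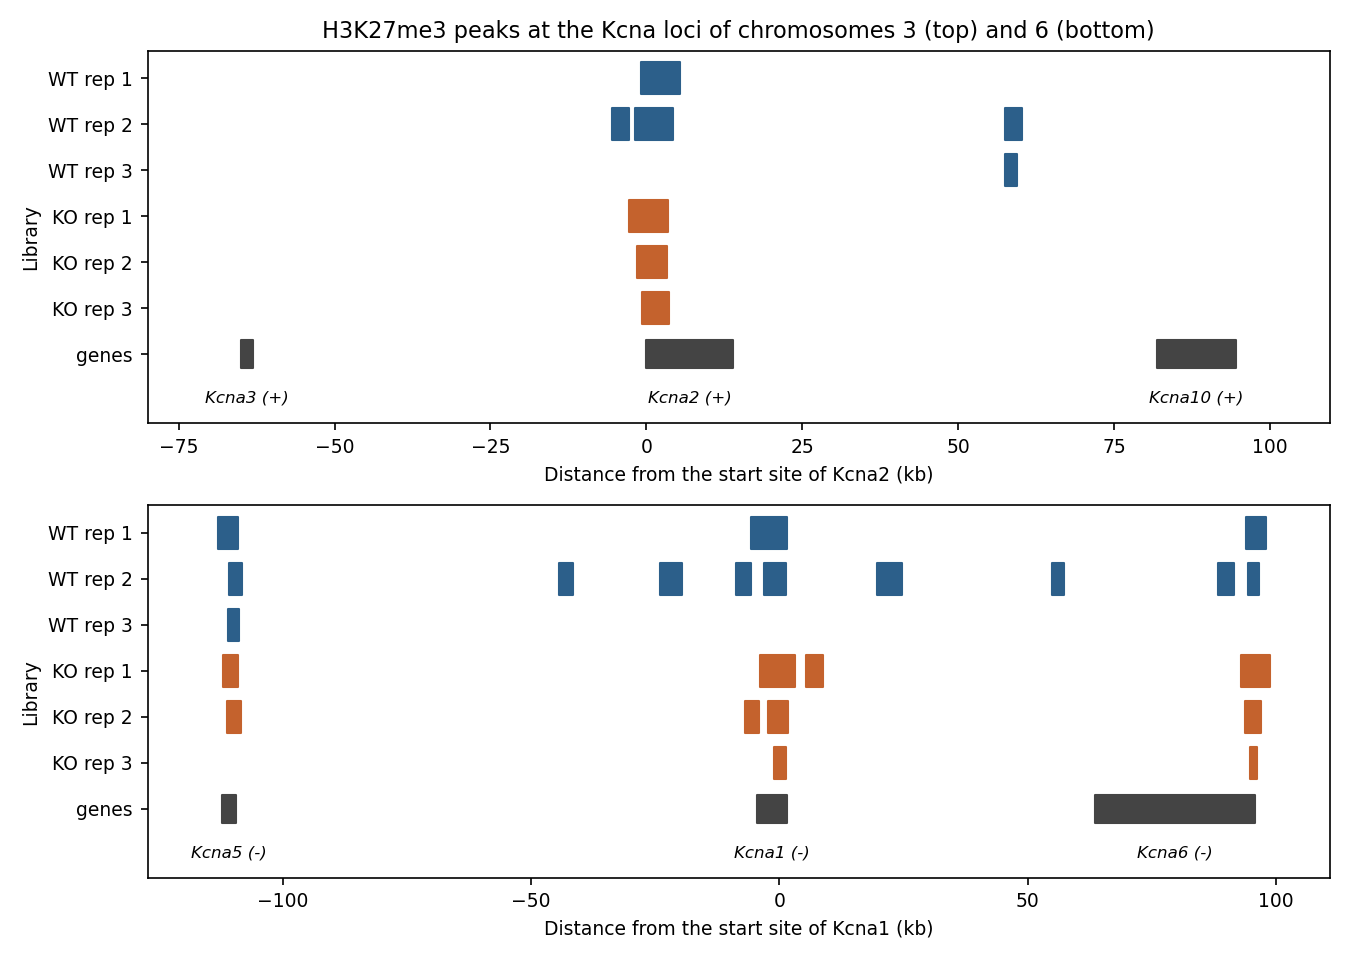
Peaks of the 6 libraries (rows, WT blue and KO orange bars) over the Kcna clusters of chromosomes 3 and 6, with genes as grey bars, their strand in brackets, and distance in kb from the start of Kcna2 or Kcna1 on the x axis. On chromosome 3 the gene with peaks at its start is Kcna2 (5 libraries), while on chromosome 6 Kcna5, Kcna1 and Kcna6 each have them in 5.

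Silent subunits form no channel alone and modify other voltage-gated subunits when assembled with them. Of these 10 genes, 9 had a promoter peak in at least 1 library (1 of 1 Kcnf, 4 of 4 Kcng, 3 of 3 Kcns and 1 of 2 Kcnv), with 5 marked in WT and 8 in KO. Kcng2 was called in all 6 libraries, with percentiles of 74.8, 91.6 and 73.3 in WT and 83.4, 85.9 and 68.2 in KO. Kcns1, expressed in sensory neurons, had 86.1 and 77.1 in the 75 bp WT libraries and 88.0, 90.2 and 0.302 in KO, so that its peak in KO replicate 3 was among the weakest of that library. Kcnf1 was called in WT replicate 2 alone of the WT libraries (62.4) and in all 3 KO libraries (49.5, 62.7 and 42.3). Kcnv1 was called in WT replicate 2 (53.1) and in KO replicates 1 and 2 (36.2 and 48.8).

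Inward rectifiers, which hold cells near the potassium equilibrium potential, had a promoter peak for 9 of 15 genes, with 6 marked in WT and 8 in KO. WT replicate 3 called none of them. Kcnj4, a rectifier of brain and heart, had the highest mean percentile of the class (92.3), with total signals of 18828 and 60639 in WT replicates 1 and 2 and of 67182, 92206 and 24604 in KO. Those values are the 72.0th and 97.7th percentile in WT and the 97.6th, 99.8th and 94.4th in KO, and in WT replicate 1 other genes of the class, Kcnj12 among them, stood higher. In KO replicate 2 a single peak of 22783 bp, the widest at any potassium channel promoter, reached across the promoter of the neighbouring Kdelr3. Kcnj12, a close relative in cardiac muscle, had 93.2 and 97.1 in WT and 87.0, 93.5 and 63.2 in KO. Kcnj2, the classical inward rectifier, also known in macrophages, had no peak in any library, and neither did Kcnj1, Kcnj13, Kcnj14, Kcnj15 or Kcnj16.

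Tandem-pore-domain channels carry the background leak current. Of 14 genes, 9 had a promoter peak in at least 1 library, and 8 were marked in each genotype. Kcnk2, Kcnk3 and Kcnk4, a group that holds mechanically gated and acid-sensitive channels, were each called in 6 of 6 libraries. Kcnk4 had total signals of 28900, 52205 and 3662 in WT and of 67001, 49221 and 15252 in KO. Its merged region of 13241 bp (chr19:6923772-6937012) also held promoters of Bad, Catsperz and Esrra, so this signal is not that of Kcnk4 alone. Kcnk3 had percentiles of 72.8, 18.4 and 64.8 in WT and 67.1, 73.6 and 35.4 in KO. In WT replicate 2 the value of 18.4 is that of a peak at another annotated start, while a stronger peak in the gene body (61.4) lay 569 bp from the principal start and outside the promoter window. Kcnk5 and Kcnk6, both reported in blood cells, and Kcnk7, Kcnk16 and Kcnk18 had no promoter peak.

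Calcium- or sodium-activated channels had a promoter peak for 5 of 8 genes, with 4 marked in WT and 5 in KO. Kcnt1, which encodes a sodium-activated channel of neurons, was called in all 6 libraries, with percentiles of 87.1, 89.6 and 28.5 in WT and 79.7, 94.0 and 27.2 in KO. Both replicate 3 libraries were the lowest. Kcnma1, the large-conductance calcium-activated channel, had 81.0 and 30.4 in the 75 bp WT libraries and 90.4, 29.1 and 52.3 in KO, and was again not called in WT replicate 3. In WT replicate 2 and KO replicate 2 these peaks did not cover the principal start, and stronger peaks in the body (88.0 and 32.6) lay 450 and 1076 bp from it. Kcnn1, a small-conductance channel of neurons, had 68.9 and 53.8 in WT and 73.7, 56.5 and 47.4 in KO. Kcnn4, the calcium-activated channel of red cells and lymphocytes, had no peak in any library, and the same held for Kcnt2 and for the sperm gene Kcnu1.

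Auxiliary subunits and regulators had the lowest share called in at least 1 library (50%), although the share marked in WT was lower for inward rectifiers (40% against 43.8%). Of 16 genes, 8 had a promoter peak in at least 1 library, with 7 marked in WT and 6 in KO, and WT replicate 3 called none. The counts were 3 of 4 for Kcnip, calcium sensors that bind Kcnd channels, 2 of 3 for Kcnab, 2 of 4 for Kcnmb and 1 of 4 for Kcne. Kcnip1 had the highest mean percentile (70.7), with percentiles of 74.4 and 94.2 in WT and 81.0, 91.5 and 12.4 in KO. Kcnab1 was called only in the 75 bp libraries, with 42.1 and 70.2 in WT and 72.8 and 50.2 in KO. Kcnmb2, a subunit of the channel of Kcnma1, was also called in those 4 libraries, with 57.7 and 75.3 in WT and 36.9 and 50.9 in KO. Kcne3 had weak peaks in 1 library of each genotype (35.4 in WT replicate 1 and 12.5 in KO replicate 1), neither over its principal start. Kcnrg, which encodes a regulator of channel assembly, had no peak in any library. Kcnab2, the beta subunit of blood cells, lacked a promoter peak throughout and was the 1 gene called in its body only, by a peak of 5 fragments in KO replicate 2. That pattern was found for 1.79% of all genes.

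Set side by side, the classes ranged from 73.6 ± 7.18% (voltage-gated) to 31.2 ± 18.8% (auxiliary) in KO and from 57.5 ± 26.1% to 31.2 ± 27.2% in WT (mean ± SD of the share called, n = 3 each). Silent subunits were at 46.7 ± 35.1% in WT and 73.3 ± 15.3% in KO, inward rectifiers at 33.3 ± 29.1% and 48.9 ± 3.85%, and tandem-pore-domain channels at 47.6 ± 23% and 54.8 ± 10.9%. The calcium- or sodium-activated class was at 37.5 ± 21.7% and 58.3 ± 7.22%. KO means were higher in 5 classes and equal in the auxiliary class. In the 75 bp libraries alone the differences were 5.17 points for voltage-gated, 15 for silent, 12.5 for calcium- or sodium-activated and 0 for the inward rectifier and tandem-pore classes, and auxiliary subunits were lower in KO (-6.25). With between 8 and 29 genes in a class, a single gene moves these shares by several points. Classes also differed in their share of CpG-rich genes, from 12.5% (calcium- or sodium-activated) to 69% (voltage-gated). The part played by base composition was not tested. Strength was compared by the mean percentile of each called gene over the libraries that called it. Voltage-gated genes had the highest median (70.1), followed by tandem-pore-domain channels with 62.4 (range 8.64 to 79.4), calcium- or sodium-activated channels 56.6 (48 to 67.7) and silent subunits 54.8 (38.9 to 79.5). Inward rectifiers had a median of 49.9 with a wide range (7.31 to 92.3), and auxiliary subunits were at 47.8 (23.9 to 70.7). The ranges of all classes overlapped, that of the voltage-gated class included.

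**Figure D4:**
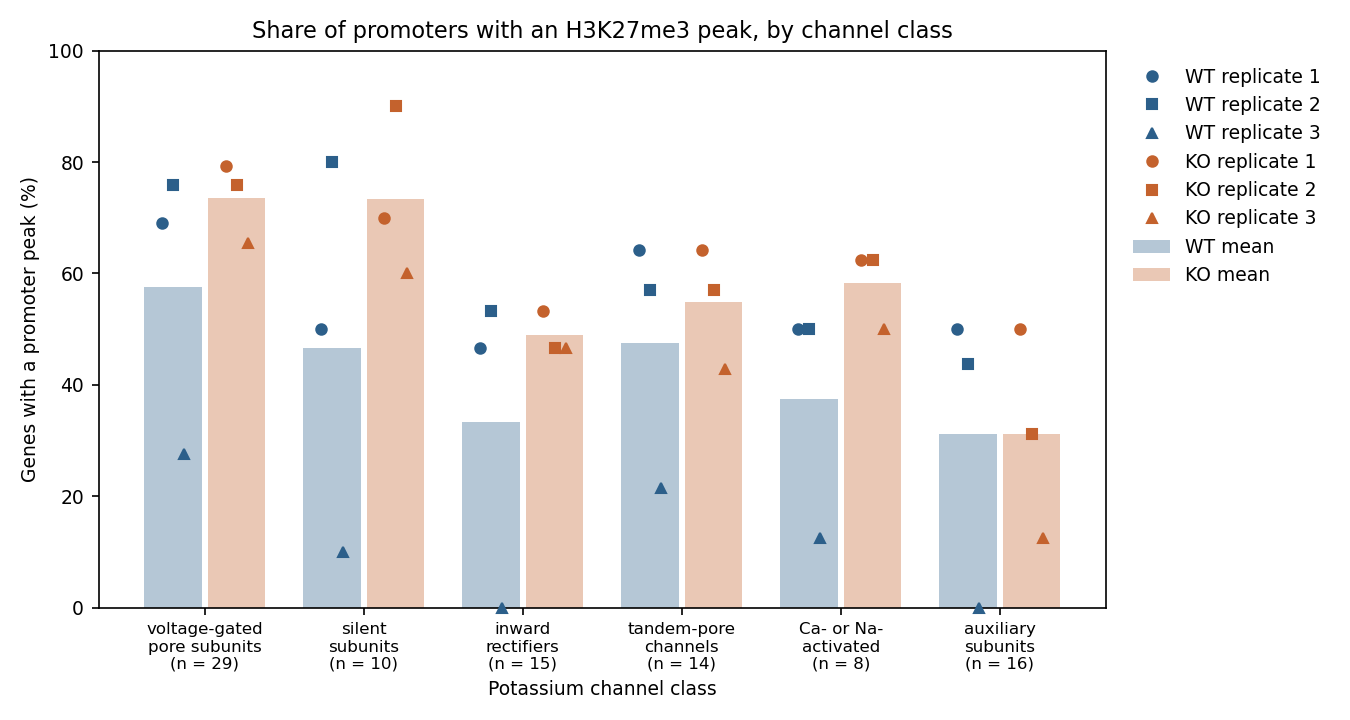
Share of genes with a promoter peak (y axis, percent) in each potassium channel class (x axis), with the mean of 3 libraries as a bar and each replicate as a point, WT in blue and KO in orange. The WT bars are pulled down by WT replicate 3, which calls 0% of inward rectifiers and of auxiliary subunits.

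Genes called in a single genotype were sought next. No potassium channel gene was marked in WT and uncalled in all KO libraries, against 0.183% of all genes. Marked in KO and uncalled in all WT libraries were 3 (3.26%), against 0.529%. These shares also carry the higher calling of the family. Set against genes marked in KO, the counts were 3 of 57 for the family and 110 of 2499 for all genes. Kcna7, a channel of muscle, was called in all 3 KO libraries, with total signals of 58983, 32775 and 9753. In WT replicates 1 and 2 a peak covered part of the gene itself, with total signals of 14212 and 49310, at 2.41 and 1.22 kb downstream of the start site, and thus outside the promoter window. The KO replicate 1 peak spanned 15182 bp and the merged region also held promoters of Lhb and Ntf5. Kcnn3, a small-conductance calcium-activated channel, was called over its start in KO replicates 1 and 2 (total signals of 9080 and 18656), whereas KO replicate 3 and the WT libraries had none within 49.7 kb of a start. Kcng3, a silent subunit, was called in KO replicates 2 and 3 (12926 and 8337), and the nearest peak in the other 4 libraries lay about 879 kb away or further. Peaks of Kcnn3 and Kcng3 had maxima of 7 to 13 fragments, where the medians of those libraries were 9 or 10. Of the 3 genes, Kcna7 was called in every KO library, and with gene bodies counted as well Kcng3 was the 1 gene left in the group. Without WT replicate 1 or 2, the number of such genes was 6 or 7 and without KO replicate 2 it was 1.

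Promoter peaks of the family were placed mostly over a start site. In the 6 libraries, 92.3% to 97.7% of the called potassium channel genes had a peak over an annotated start, against 84% to 93% over all genes. Where the strongest peak covered the principal start, its median reach was 493 to 2124 bp upstream and 1242 to 3555 bp downstream, and the downstream side was longer in each library's median. Merged over libraries, the promoter regions of 60 of 64 genes covered the principal start, and those of 5, among them Kcna7, Kcnab3, Kcnj4 and Kcnk4, also reached a promoter of another coding gene. The strength of these peaks was close to that of promoter peaks in general. Their median percentile of total signal was 69.1, 58.6 and 51.9 for the WT libraries, where peaks at all promoters had 59.9, 61.9 and 54.4. For the KO libraries it was 70.3, 63.4 and 48.5, where all promoters had 60.8, 60.6 and 53.5. Potassium channels were higher in WT replicate 1 and in KO replicates 1 and 2 and lower in the other 3 libraries. The median of maximum signal was that of all promoter peaks in 5 libraries (6 fragments in WT replicate 3 and 10 or 11 in the others), and 11 against 10 fragments in KO replicate 3.

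Finally, signal was compared between genotypes at regions called in every library. Total signals were put on a log2 scale, centred on the median of each library and tested with limma over all regions with Benjamini-Hochberg adjustment at 0.05. With 6 libraries there were 717 regions, of which 13 belonged to potassium channels. By limma none passed the threshold (0%) and 8 regions (1.12%) had an unadjusted p under 0.05, of which 0 belonged to the family. The unadjusted count rose to 25 with a replicate block, again with 0 potassium channel regions. The median log2 difference, KO minus WT, was -0.01 over the 13 regions and -0.02 over all 717, with a median absolute difference of 0.23 and 0.24. With the 4 libraries of 75 bp reads, there were 2554 regions and 53 at 47 potassium channel genes. Again none passed by limma (0%), 118 (4.62%) had an unadjusted p under 0.05, and 2 of these lay at potassium channels (3.77% of 53). With a replicate block these were 156 (6.11%) of all regions and 4 (7.55%) of the potassium channel regions, and none passed. In this comparison the median log2 difference was 0.04 over the 53 regions and -0.01 over all regions. The median SE of a potassium channel region was 0.374 on the log2 scale with 6 libraries and 0.355 with 4.

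One of the 2 potassium channel regions with an unadjusted p under 0.05 was that of Kcnk2 (chr1:189339224-189348361), with total signals of 17601 and 20658 in WT and 35404 and 36987 in KO, a log2 difference of 0.81 ± 0.32 and an adjusted p of 0.998 by limma. KO peaks were wider (8718 and 8076 bp against 4603 and 4474 bp), and per covered base the difference was -0.03. In the 50 bp libraries the unscaled totals of Kcnk2 were 3732 in WT and 6833 in KO, but after centring on each library KO was the lower (-1.23 against -0.32), and over all 6 libraries the log2 difference was 0.23 ± 0.42.

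At Kcnh5, named in part for its small p, the KO values lay below the WT values in both comparisons. The 4 libraries of the one are among the 6 of the other, so the second is no separate evidence. Its centred log2 values were 0.06, -0.40 and -0.30 in WT and -0.92, -0.92 and -0.63 in KO, without overlap, for a difference of -0.61 ± 0.31 over 6 libraries (adjusted p of 0.992 by limma). Per covered base this difference was 0.00. In the 75 bp libraries, the difference at Kcnh5 was -0.74 ± 0.33 and at Kcns3 -0.93 ± 0.41, where KO replicates 1 and 2 were far apart (-0.08 and -1.12) and both below WT (0.30 and 0.37). Kcnh2 (0.93 ± 0.44) and Kcna6 (0.58 ± 0.34) had KO values above WT, and these 4 regions had an adjusted p of 0.998 by limma. These values moved with single libraries. With the regions kept as they were and 1 library left out, Kcnh2 lay between 0.35 (without WT replicate 1) and 1.51 (without WT replicate 2), and Kcna6 between 0.36 (without WT replicate 2) and 0.80 (without WT replicate 1). Kcns3 lay between -1.45 (without KO replicate 1) and -0.41 (without KO replicate 2), and Kcnh5 between -0.99 (without WT replicate 2) and -0.49 (without WT replicate 1). Over 6 libraries, Kcnh2 differed by 0.50 ± 0.52, Kcnj4 by 0.49 ± 0.47 and Kcnk4 by 0.33 ± 0.37, and Kcnk3 by -0.24 ± 0.36, all with an adjusted p of 0.992 by limma. For Kcnj4, the peak of WT replicate 3 in this region lay outside the promoter of the gene and had a maximum of 3 fragments. None of these differences passed the test, and each library counted as 1 sample, so the p-values reflect the spread between these libraries.

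**Figure D5:**
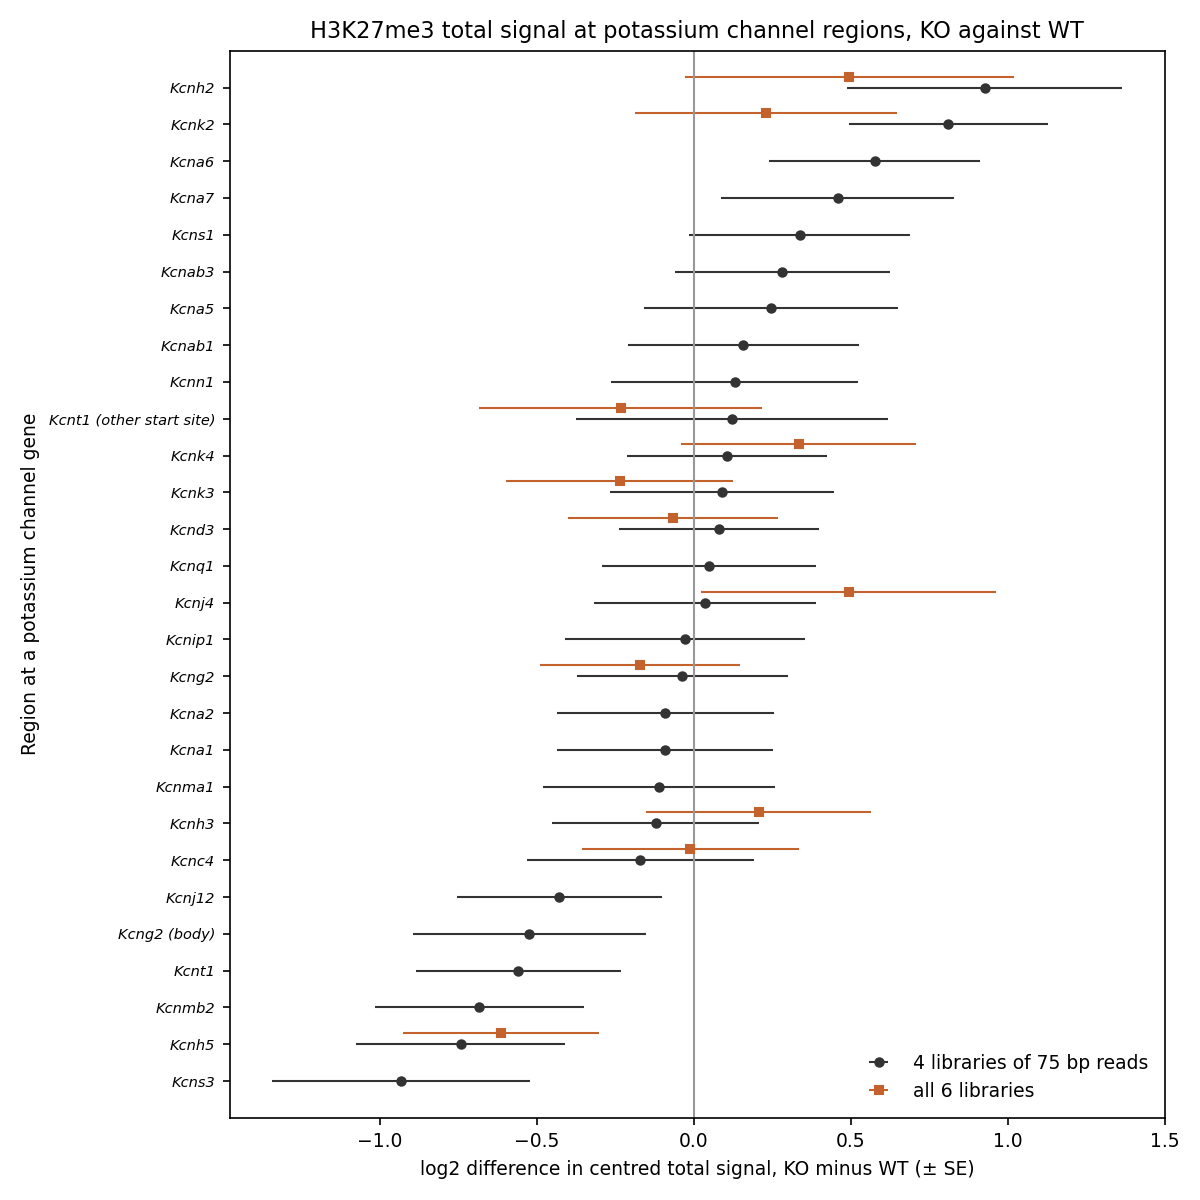
Difference in centred log2 total signal, KO minus WT (x axis, with SE as bars), at regions of potassium channel genes named in the text, 28 of them called in the 4 libraries of 75 bp reads (black) and 11 called in all 6 libraries (orange). Of the black points 20 lie within 0.5 of 0, and they range from -0.93 (Kcns3) to 0.93 (Kcnh2).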

How the data were processed

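H3K27me3 CUT&Tag was measured in 6 libraries. Per the labels and methods, the authors trimmed reads with Trim Galore 0.6.6, aligned them to GRCm38 with Bowtie2 2.4.4 and called peaks per library with SEACR 1.3 in stringent mode, without IgG, keeping the top 0.5% of enriched blocks. The deposited signal values (total and maximum fragment coverage per peak) are unscaled, and the top 0.5% is relative to each library. Read totals that the study lists were not used here. Groups came from the labels, and the 4 IκBα samples were not analysed here.

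Peaks on 19 autosomes were assigned to GENCODE M21 genes by an overlap of at least 1 bp (Python 3.11.15). Regions were merged over libraries and tested with limma 3.58.1 in R 4.3.3. Scripts were tested on simulated data. Same-numbered WT and KO libraries deviated together (r of 0.272, 0.314 and 0.469 across 717 regions, which are not independent), although WT replicate 2 with KO replicate 1 gave 0.268, so a replicate block was run as an alternative. Replicate number also marks read length. Libraries of a genotype are separate samples by their labels. The study calls them independent replicates, but its figure legend gives 2 independent experiments for this assay. It does not tie embryos or experiments to libraries, so a shared experiment could not be taken into account.

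The 40 genes to name were those called in all 6 libraries, the 12 with the highest mean percentile among those called in at least 4, those marked in 1 genotype and uncalled in the other, the 3 regions with the smallest p in each direction of each limma comparison, up to 8 called in the body only, the leading gene of each subfamily and 8 genes with roles in blood. Remaining genes are given for counts or as neighbours. Results of some of these genes are not reported here. Members and gene lists were chosen with earlier results of these data known. Marker lists covered blood stem cells, hepatocytes, endothelium (1 of 4 genes called), neurons and Hox genes.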

Additional observations from a re-analysis of the deposited data

How the results depend on the processing

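Peaks were shallow (library medians of 6 to 10 fragments at the maximum), which limits single calls. With the 1044 strongest peaks of each library, 38 potassium channel genes had a promoter peak in at least 1 library, 12 were marked in WT, 20 in KO and 1 in KO libraries only. Single libraries then called 14.1% to 26.1% of potassium channel genes and 3.64% to 4.56% of all genes. With peaks above each library's median, 31 were marked in WT. Single libraries then called 7.61% to 46.7% of potassium channel genes and 1.98% to 9.39% of all genes. When all 3 libraries were required, 12 were marked in WT, 40 in KO and 1 in KO libraries only. With promoters of 1 kb either side of a start, 1 gene was marked in WT libraries only, and with bodies included 1 was marked in KO libraries only. The other counts of this section have no share over all genes beside them, so they describe the settings and not the family. The cause of these shifts was not tested.

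Leaving out each library in turn, the KO minus WT share ranged from -1.81 (without WT replicate 3) to 22.1 points (without WT replicate 2). Genes called in at least 1 library ranged from 63 to 64, marked genes from 12 (without WT replicate 2; 13 without WT replicate 1) to 50 in WT and from 41 to 57 in KO. Genes marked in WT libraries only ranged from 0 to 2 (2 without KO replicate 1, 1 without KO replicate 2), and in KO libraries only from 1 (without KO replicate 2) to 7 (without WT replicate 2), with 6 without WT replicate 1. In the limma comparisons 0 regions passed in each alternative, with 6 as with 4 libraries. With 1 library left in an arm, it was assumed to vary like the others.

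With a replicate block the pairs gave the same share difference (13.4 points, SD 18.1), and no call changed. The principal-start window and the omissions among the 75 bp libraries were chosen after seeing the data. Log2 differences of named regions, none of which passed the test, changed sign as follows. Per covered base these were Kcnh5 (0.00467) and Kcnh2 (-0.0606) over 6 libraries, and Kcnk2 (-0.0323) and Kcns3 (0.322) over 4. On maximum signal they were Kcnk3 (0.18) over 6 libraries and Kcns3 (0.0445) over 4. With array weights they were Kcnj4 (-0.000898) and Kcnk3 (0.0247). Leaving out each of the 6 libraries, Kcnj4 ranged from -0.044 to 0.798, Kcnk4 from -0.0074 to 0.568 and Kcnk3 from -0.523 to 0.0512, with the sign turned without WT replicate 3 in each case. Kcnh2 ranged from -0.0915 (without WT replicate 1) to 1.1 over 6 libraries and from -0.568 (without KO replicate 1) to 1.51 over 4. Over 4 libraries Kcna6 was 0.363 without WT replicate 2, Kcns3 -0.406 without KO replicate 2 and -1.46 without KO replicate 1, and Kcnh5 -0.418 without WT replicate 2. Regions were merged again at each omission, and the -0.568 is of a region of 3421 bp within the original 8305 bp, over which the value without KO replicate 1 was 0.779. This fixed-region value was added after seeing the data.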
